A study of Homo sapiens with 8 samples.

Results

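Semaphorins, their plexin receptors and their neuropilin co-receptors were followed in cultures of the human kidney cancer line A-498. The genes were chosen by symbol, as every row of the table named SEMA3 to SEMA7 with a letter from A to G, PLXNA to PLXND with a number, or NRP1 and NRP2. This gave 31 of the 28395 genes in the table: 20 semaphorins, 9 plexins and 2 neuropilins. Of these, 26 had a normalized value of at least 10 in at least 2 of the 8 libraries and entered the tests (15 semaphorins, 9 plexins and 2 neuropilins). The series sequenced polyadenylated RNA from 4 lines derived from A-498, with 2 libraries a line. Control line 1 and control line 2 were labelled wild type and carried non-targeting sgRNA-1 and sgRNA-2. The other lines were labelled ANXA4 knockout (KO) and carried ANXA4 sgRNA-1 (KO guide 1) or ANXA4 sgRNA-2 (KO guide 2), directed at the gene of annexin A4, a calcium-dependent membrane-binding protein. No further treatment or allele was labelled, and all 4 lines were grown for 24 h, in equal seeded numbers and below confluence, before RNA isolation. Each guide was a single line, so guide and line cannot be told apart, and whether a line was a clone or a pool was not labelled. Nothing in the labels says that replicates came from separate cultures, so the p-values measure only the spread between these libraries, which may be technical.

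Semaphorins are secreted or membrane-bound ligands that share a sema domain, and they were first known as repellents of growing axons. Most act on plexins, large single-pass receptors whose cytoplasmic part switches off small GTPases of the R-Ras and Rap families and so loosens adhesion and the actin cytoskeleton. The secreted class 3 semaphorins mostly bind plexins of class A through the neuropilins, which also bind vascular endothelial growth factors. Class 4 semaphorins signal mainly through B plexins, SEMA3E and PLXND1 act without a neuropilin, and SEMA7A, held in the membrane by a lipid anchor, binds PLXNC1 and integrins. In carcinomas these proteins act on tumour cell migration, on vessels and on immune cells.

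Promoter sequences are shown for 3 genes on which the results turn: SEMA5A, which separated the KO-labelled from the control libraries, and PLXNA1 and PLXND1, plexin genes of chromosome 3 whose levels took the same order over the 4 lines. Each runs from 250 bases before to 50 bases after the gene's start in RefSeq on GRCh38.p14, 5′ to 3′ on the gene's strand, with capitals marking GGGCGG, the GC box, on either strand. The windows are chr5:9546026-9546325 (minus strand) for SEMA5A, chr3:126982865-126983164 (plus strand) for PLXNA1 and chr3:129606627-129606926 (minus strand) for PLXND1.
SEMA5A: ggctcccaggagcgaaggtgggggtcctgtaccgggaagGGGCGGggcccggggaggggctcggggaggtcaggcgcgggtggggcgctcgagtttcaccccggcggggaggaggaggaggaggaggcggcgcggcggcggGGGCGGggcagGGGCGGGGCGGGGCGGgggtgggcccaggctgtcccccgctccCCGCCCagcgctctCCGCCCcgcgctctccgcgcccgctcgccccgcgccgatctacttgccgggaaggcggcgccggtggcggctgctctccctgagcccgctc
PLXNA1: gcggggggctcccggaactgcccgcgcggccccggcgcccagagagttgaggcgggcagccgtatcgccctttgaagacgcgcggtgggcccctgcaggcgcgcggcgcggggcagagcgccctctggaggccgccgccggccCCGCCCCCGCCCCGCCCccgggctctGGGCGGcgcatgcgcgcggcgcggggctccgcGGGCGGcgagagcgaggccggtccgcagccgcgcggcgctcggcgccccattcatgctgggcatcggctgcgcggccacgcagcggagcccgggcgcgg
PLXND1: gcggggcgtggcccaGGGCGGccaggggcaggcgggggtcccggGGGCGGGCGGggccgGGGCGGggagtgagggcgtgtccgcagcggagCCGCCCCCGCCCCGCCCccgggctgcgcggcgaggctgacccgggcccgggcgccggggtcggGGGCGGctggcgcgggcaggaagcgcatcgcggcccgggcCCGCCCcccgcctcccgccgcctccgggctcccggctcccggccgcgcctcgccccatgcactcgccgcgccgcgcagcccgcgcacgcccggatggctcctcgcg
The GC box, searched on both strands with overlapping matches counted, occurred 7 times in the SEMA5A window, 5 times in that of PLXNA1 and 9 times in that of PLXND1. Of 35116 promoters of the same length, 45.0% held at least 1. At least as many as SEMA5A were held by 1.495%, at least as many as PLXNA1 by 5.14% and at least as many as PLXND1 by 0.419%. The 3 windows held 39, 54 and 52 CpG dinucleotides, against a median of 14 over all promoters, and 81.0%, 83.0% and 87.3% G and C, against a median of 58.7%. Of the 31 genes, 27 had a promoter in the RefSeq table, and 19 of these held a GC box, with the highest number, 12, in SEMA3F. The letters ACGTG, a form of the core of the hypoxia response element, were searched on both strands. They were in 21.4% of all promoters and in 6 of the 27, and not in the 3 windows printed. Other forms of this core were not searched. A match is a description of letters and not evidence of a bound factor.

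The libraries held 15784890 to 22631588 reads, and mitochondrial genes took 4.67% to 9.05% of them in 7 libraries and 13.8% in replicate 2 of KO guide 2. Of 9 markers of renal epithelium and kidney carcinoma, 7 had at least 10 normalized reads in every library, among them the renal lineage factor PAX8 with 2987 to 4476. CA9, a hypoxia-induced marker of clear cell carcinoma, was low at 2.07 to 24.8, and NDUFA4L2 was at 0.860 to 8.30. Markers of other cells were mixed. CD3E and CDH5 had 0 reads in every library, PTPRC, COL1A2 and DCN reached at most 1.21 normalized reads, and PECAM1 at most 4.53. Other members of those leukocyte, endothelial, fibroblast and neuron or glia lists were present: CD68 at 1784 to 4409, TEK at 21.7 to 67.6, COL1A1 at 177 to 1408, PDGFRB at 1.04 to 19.8, SNAP25 at 66.5 to 269.6 and MBP at 154 to 1061. Their part in the results was not tested. The targeted gene itself had 2821 to 6773 normalized reads in the control libraries, 236 and 234 in KO guide 1, and 3433 and 4142 in KO guide 2. ANXA4 transcript in KO guide 2 thus lay inside the control range, which goes against a loss of transcript, so "KO guide 2" names a label throughout. A frameshift or the protein cannot be read from these counts.

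Compared per length, as normalized reads per kb of annotated exon, the 31 genes spanned levels from no read to a mean of 1239 for the class 4 semaphorin SEMA4B (752.6 to 1846 over the 8 libraries). PLXNB2, a class B plexin, had a mean of 1211 (869 to 1528), and it was the highest of the 31 in 5 libraries and SEMA4B in the other 3. PLXND1, with 662 (319 to 1074), came next, then NRP2 with 626 (323 to 816), NRP1 with 562 (458 to 763) and the secreted SEMA3C with 504 (262 to 840.2). A lower group held PLXNA1 (mean 221), the membrane-spanning SEMA6B (219), SEMA7A (177), SEMA4C (121), SEMA3F (121) and PLXNB3 (121). Neighbours in this order overlapped in range, except that all libraries of PLXNB3 lay above all libraries of PLXNB1 (mean 70.7), and all libraries of SEMA6C (mean 8.996) above all libraries of SEMA4G (mean 2.94). Between those breaks lay PLXNB1, SEMA4F (54.0), PLXNA3 (53.2), SEMA3B (27.9), SEMA5A (25.1), SEMA4D (15.9), PLXNA2 (15.0), SEMA3A (11.4) and SEMA6C. PLXNC1, the receptor of SEMA7A, was low, with a mean of 2.59 (1.15 to 3.91). Summed over a family, levels per kb were 1841 to 3453 for semaphorins, 1539 to 2926 for plexins and 823 to 1579.6 for neuropilins, and the lowest library of each family was one of KO guide 2.

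**Figure D1:**
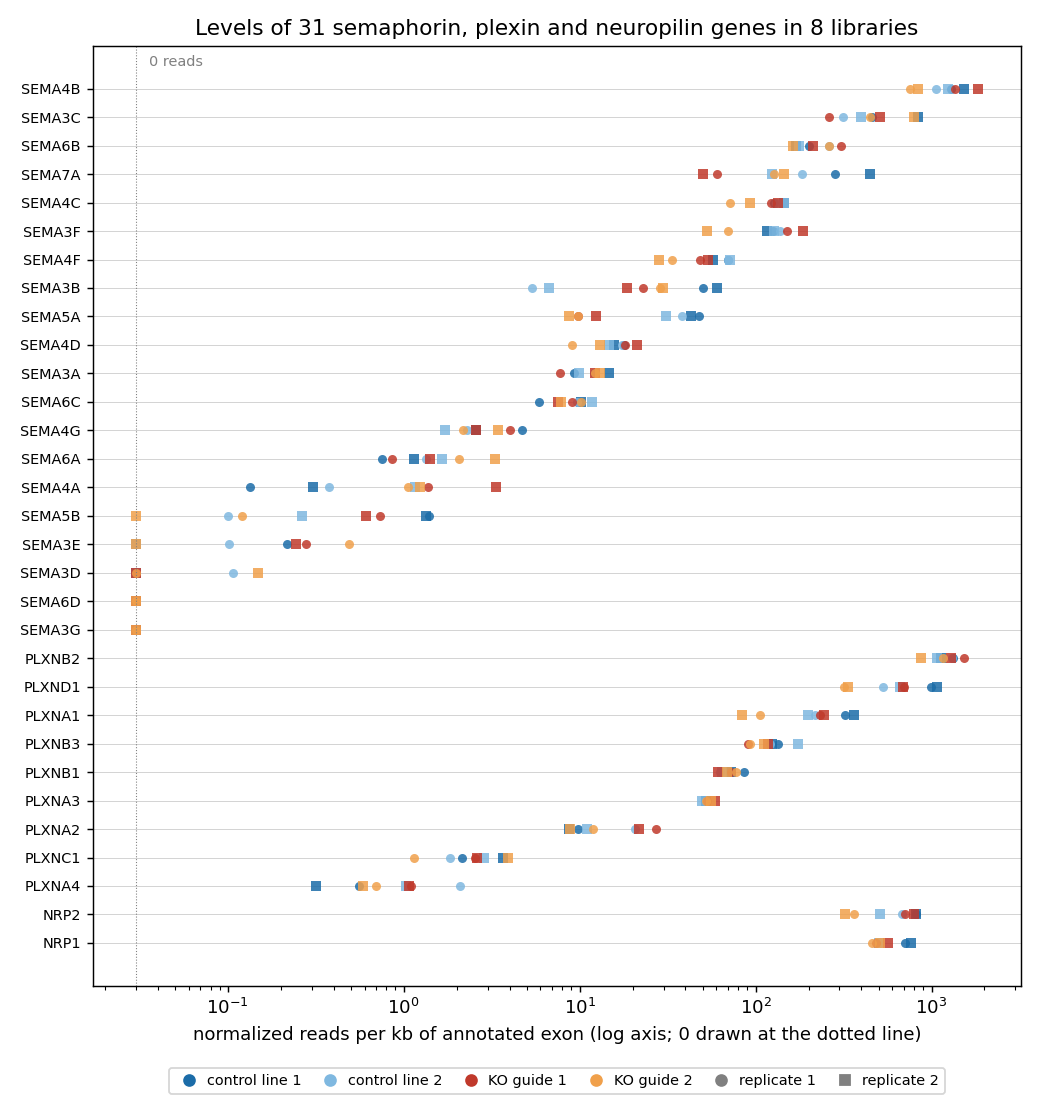
Level of each of the 31 genes in normalized reads per kb of annotated exon (log axis), 1 point per library, with colour for the line and shape for the replicate. SEMA4B and PLXNB2 lead with means of 1239 and 1211 per kb, and genes without reads are drawn at the dotted line.

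The 5 genes that did not enter the tests were class 3, 4 and 6 semaphorins. SEMA3G and SEMA6D had 0 reads in all libraries, where 3 of the 146070978 reads sequenced is the limit that a count of 0 allows, counting error only. SEMA3D reached 1.21 and SEMA3E, a ligand of PLXND1, 4.14 normalized reads. SEMA4A had 0.919 and 2.08 in control line 1, 2.58 and 7.93 in control line 2, 9.39 and 22.8 in KO guide 1, and 7.24 and 8.45 in KO guide 2. Only 1 library of SEMA4A thus passed 10.

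The comparison of the labelled arms asks which of these genes differ between KO and control cells. SEMA5A, a membrane semaphorin with thrombospondin repeats and a ligand of PLXNB3, was 3.89-fold lower in the KO-labelled lines. It had 578 and 522 normalized reads in control line 1, 460.3 and 374 in control line 2, 118 and 149 in KO guide 1, and 119 and 105 in KO guide 2. All 4 KO-labelled libraries were below all 4 control libraries, and the KO-labelled lines overlapped each other. The arm means were 484 ± 87.6 in control and 123 ± 18.8 in KO (SD, n = 4 each), a log2 difference of -1.96 (SE 0.21, limma adjusted p 0.00698) on the scale of log2(value + 1), from which all folds here come. In bulk RNA, fewer cells carrying a transcript and less of it per cell cannot be told apart.

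SEMA5A was the 1 of 26 called in this comparison, where 33 of 14040 genes were called, 0.235% in either direction and 0.107% lower. It was called with each of the 8 libraries left out in turn, with a highest limma adjusted p of 0.0420 without 1 library, and in the fit with the replicate block (adjusted p 0.0164). Permuting the 8 libraries exactly, two-sided, gave p = 0.0286, the smallest that 70 arrangements allow. Every gene whose arms do not overlap, 10.6% of all tested genes, gets this value, so it adds nothing to the separation. It also takes the 2 libraries of a line as independent. Taking each line as 1 value left 2 against 2, where the exact permutation p was 0.333, the smallest possible with 6 arrangements, and no gene of the table was called by limma on line means (1086 at an unadjusted p under 0.05). Each KO-labelled line differed from both control lines, by -1.84 for KO guide 1 (SE 0.17, limma adjusted p 0.000880) and by -2.09 for KO guide 2 (SE 0.17, limma adjusted p 0.000381), with the controls shared between these comparisons. Between the KO-labelled lines the log2 difference was -0.25 (SE 0.19, limma adjusted p 0.468), and between the control lines -0.40 (SE 0.19, limma adjusted p 0.368). SEMA5A lies at chr5:9035033-9546075 (GRCh38.p14, minus strand), and the other tested genes of chromosome 5 had a median difference between the arms of 0.02. Its exons overlap AC021088.1 on the opposite strand, and since no strand setting is given in the sources used here, reads of that RNA cannot be told apart from its own.

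Over the 26 genes the median log2 difference between the arms was -0.14, with 19 below 0 and 7 above, beside a median of 0.00 over all tested genes. The arms did not overlap for 4 of the 26, which were SEMA5A, SEMA4F and PLXNB3 (lower in KO) and PLXNA3 (higher in KO). Of all tested genes, 10.6% showed such a separation, 5.51% lower and 5.11% higher in KO. The mean of PLXNA3, a receptor for class 3 semaphorins, was 603 ± 13.3 in control and 644 ± 34.0 in KO, a log2 difference of 0.09 (SE 0.13, limma adjusted p 0.867). PLXNB3, a receptor of SEMA5A, was 971 ± 172 in control and 723 ± 96.0 in KO, a log2 difference of -0.42 (SE 0.20, limma adjusted p 0.455).

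**Figure D2:**
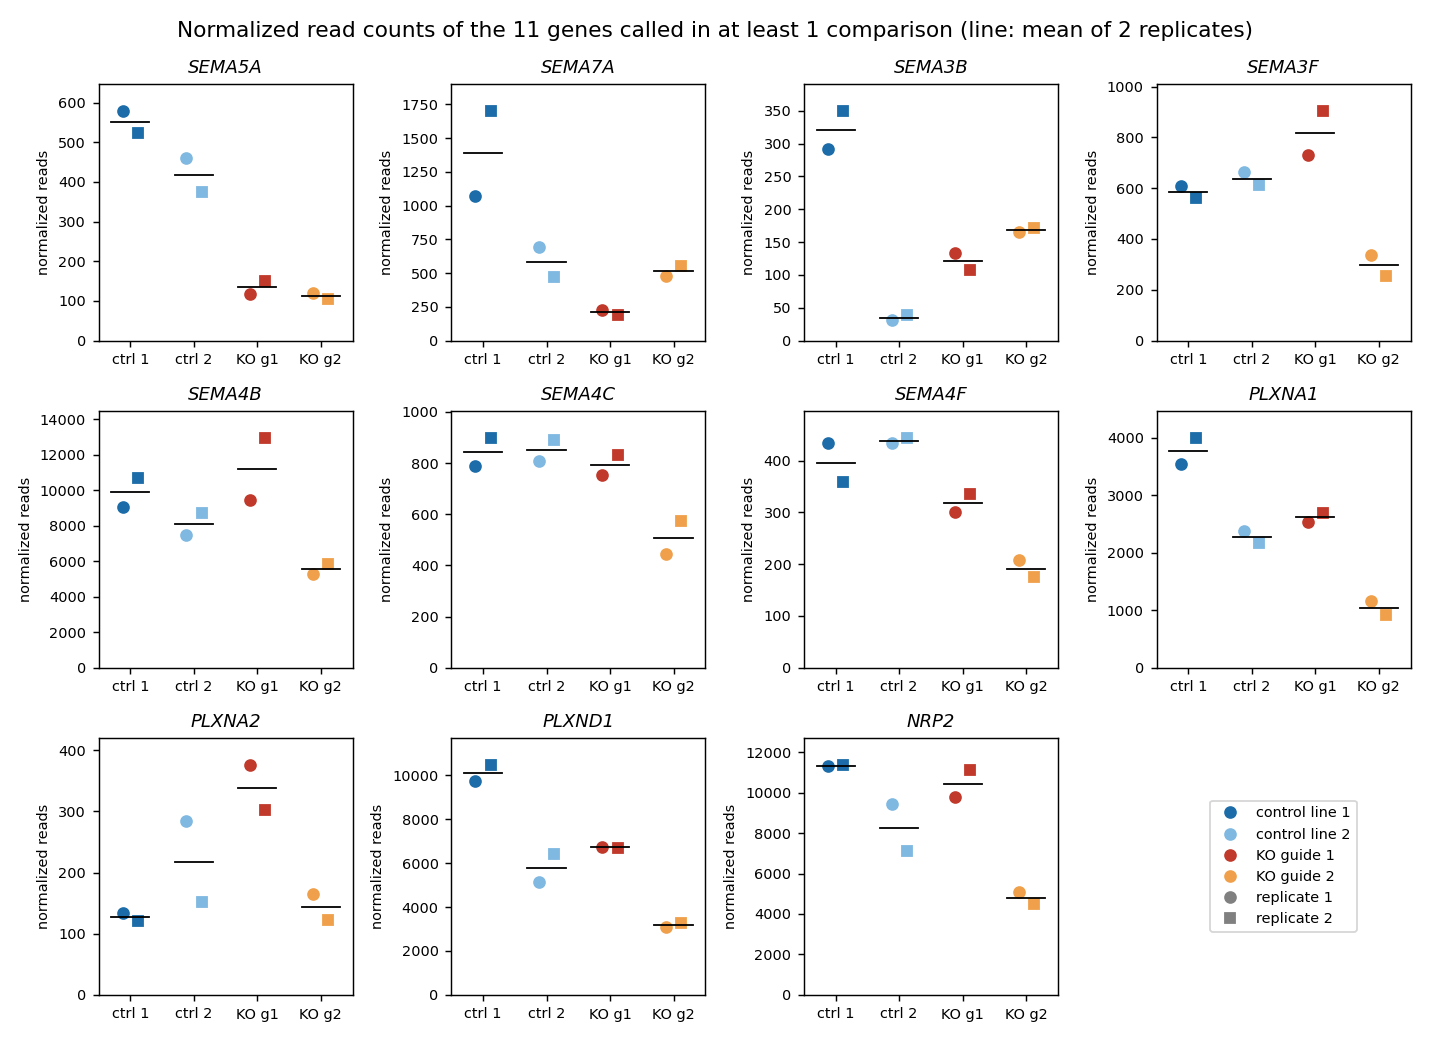
Normalized read counts of the 11 genes called in at least 1 of 5 comparisons, by line (linear axes from 0), with 1 point per library and a bar at the mean of 2 replicates. SEMA5A is low in both KO-labelled lines, SEMA7A is lowest in KO guide 1, and 7 others are lowest in KO guide 2.

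The lines were then compared one against another. In at least 1 of the 5 comparisons 11 of the 26 genes were called: 7 semaphorins, 3 plexins and 1 neuropilin. The share of all tested genes called in at least 1 of the 5 was not taken, so this count is no result about the family. KO guide 1 differed from the control lines in 3 of the 26, higher in PLXNA2 and lower in SEMA5A and SEMA7A, beside 7.01% of all genes tested (984), with 3.82% higher and 3.18% lower. KO guide 2 was lower in 8 of the 26: SEMA3F, SEMA4B, SEMA4C, SEMA4F, SEMA5A, PLXNA1, PLXND1 and NRP2. By limma 0 were higher, whereas edgeR and DESeq2 each called SEMA3B higher. An unadjusted limma p under 0.05 in either direction was found for 15 of the 26, beside 3749 of the 14040 tested genes. Of all tested genes, 11.2% were called in that comparison (1573), 6.67% lower and 4.54% higher, and the median log2 difference was -0.32 over the 26 genes and 0.01 over all. KO guide 2 and KO guide 1 differed in 9, with SEMA7A higher in KO guide 2 and 8 lower, beside 6.94% of all genes (975), with 4.53% lower and 2.41% higher. Of the 8 genes lower in KO guide 2 than in control, 7 were also lower than in KO guide 1, in comparisons that share the libraries of KO guide 2. Control line 2 was lower than control line 1 in 4 of the 26, beside 2.13% of all genes (299), with 1.08% lower and 1.05% higher.

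With a block for the replicate number, counts rose for these genes as for the whole table. KO guide 1 then differed from control in 8 of the 26 (24.4% of all genes), KO guide 2 in 16 (27.4%), the KO-labelled lines from each other in 14 (24.5%) and the control lines in 9 (12.5%). Of the 16 in KO guide 2, 13 were lower and 3 higher, beside 14.9% and 12.5% of all genes. Of the 9 between the control lines, 7 were lower and 2 higher in control line 2, beside 6.79% and 5.68%.

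**Figure D3:**
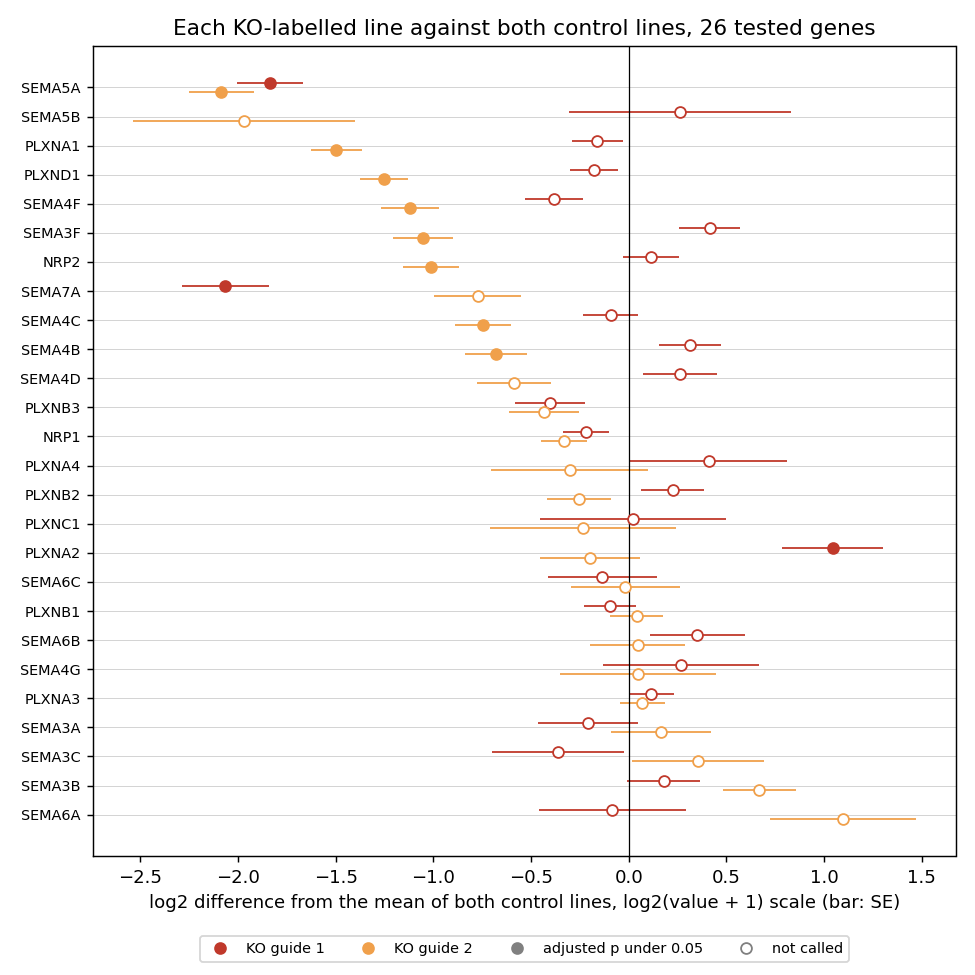
Log2 difference of each KO-labelled line from the mean of both control lines for the 26 tested genes, with bars of 1 SE; filled points have a limma adjusted p under 0.05. For SEMA5A both lines lie near -2, whereas PLXNA1, at -1.50 in KO guide 2, is at -0.16 in KO guide 1.

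Among the ligands, SEMA7A showed the largest fall in KO guide 1. Its normalized reads were 1075 and 1700.4 in control line 1, 695 and 469 in control line 2, 229 and 191 in KO guide 1, and 481 and 549 in KO guide 2. KO guide 1 was below every other library, and KO guide 2 overlapped control line 2. The log2 difference of KO guide 1 from the controls was -2.07 (SE 0.22, limma adjusted p 0.00175), and it was called without each of the 8 libraries. For KO guide 2 it was -0.77 (SE 0.22, limma adjusted p 0.0572), called with the replicate block (adjusted p 0.0105), and the KO-labelled lines differed by 1.29 (SE 0.26, limma adjusted p 0.0244). Control line 2 itself was below control line 1 (log2 difference -1.24, SE 0.26, limma adjusted p 0.0484). Over the arms SEMA7A differed by -1.42 (SE 0.45, limma adjusted p 0.262). DESeq2 called it (adjusted p 0.0120), in a fit of the arms that took the libraries of a line as independent. The call between the control lines was lost without any 1 library of the control lines or of KO guide 1 (adjusted p up to 0.310), and that between the lines labelled KO was lost without either library of KO guide 1 or replicate 2 of KO guide 2 (up to 0.179).

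SEMA3B, a secreted semaphorin known as a candidate tumour suppressor on the short arm of chromosome 3, differed most between the control lines. It had 291 and 349 normalized reads in control line 1 but 30.97 and 38.5 in control line 2, with 133 and 108 in KO guide 1 and 165 and 171 in KO guide 2. Both KO-labelled lines thus lay between the control lines, and no library of one line overlapped another line. The log2 difference between the control lines was -3.17 (SE 0.22, limma adjusted p 0.000217), 9.01-fold, and it was called without each of the 8 libraries. Against the mean of both control lines KO guide 2 differed by 0.67 (SE 0.19, limma adjusted p 0.0529) and was called with the replicate block (adjusted p 0.0126), although no control library lay near that mean. Between the arms the log2 difference was 0.42 (SE 0.72, limma adjusted p 0.896), and edgeR, which averages reads, gave the opposite sign (-0.30).

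SEMA3F, a secreted ligand that acts through NRP2, fell in KO guide 2. Its values were 609 and 559.5 in control line 1, 664 and 611 in control line 2, 730.4 and 903 in KO guide 1, and 336 and 256 in KO guide 2. KO guide 2 was below and KO guide 1 above all control libraries. The log2 difference of KO guide 2 from control was -1.05 (SE 0.16, limma adjusted p 0.00456), and from KO guide 1 it was -1.47 (SE 0.18, limma adjusted p 0.00449), the latter lost without replicate 2 of KO guide 1 (adjusted p 0.0577). For KO guide 1 it was 0.41 (SE 0.16, limma adjusted p 0.148), called with the replicate block (adjusted p 0.0416). SEMA3F-AS1 overlaps its exons on the opposite strand, with the uncertainty given for SEMA5A.

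The other class 3 ligands were not called. SEMA3C, the most abundant of them and a ligand of both neuropilins, was higher in replicate 2 than in replicate 1 of every line: 2871 and 5267 in control line 1, 1975 and 2498 in control line 2, 1642 and 3179 in KO guide 1, and 2818 and 5011 in KO guide 2. The replicates differed by 0.34 to 0.95 on the log2 scale. With the block, SEMA3C was called in each comparison of lines: lower in KO guide 1 than in control (log2 difference -0.36, limma adjusted p 0.0460), higher in KO guide 2 than in control (0.35, 0.0466) or in KO guide 1 (0.72, 0.00347), and lower in control line 2 than in control line 1 (-0.81, 0.00319). Without the block, leaving out each library in turn took the difference from control from -0.84 to 0.11 in KO guide 1 and from -0.06 to 0.77 in KO guide 2, so both signs turned. SEMA3A, the classical axon repellent, had 72.8 to 137 normalized reads and was not called in any of the 5 comparisons.

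Of the membrane-bound class 4, SEMA4B, SEMA4C and SEMA4F fell in KO guide 2. SEMA4F had 434 and 358 normalized reads in control line 1, 434 and 443 in control line 2, 301 and 336 in KO guide 1, and 208 and 175 in KO guide 2. All 4 KO-labelled libraries were below the controls. KO guide 2 differed from control by -1.12 (SE 0.15, limma adjusted p 0.00314), and KO guide 1 by -0.38 (SE 0.15, limma adjusted p 0.158). Over the arms the log2 difference was -0.75 (SE 0.23, limma adjusted p 0.237). DESeq2, taking the libraries of a line as independent, called it (adjusted p 0.0312). SEMA4C, a ligand of PLXNB2, had 787 and 896 in control line 1, 809.6 and 889 in control line 2, 754 and 831 in KO guide 1, and 443 and 572 in KO guide 2, so that only KO guide 2 stood apart. Its log2 difference from control was -0.75 (SE 0.14, limma adjusted p 0.0131), lost without replicate 1 of KO guide 2 or replicate 2 of control line 1 (adjusted p up to 0.0670).

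SEMA4B had 9080.2 and 10688 normalized reads in control line 1, 7465 and 8703 in control line 2, 9465 and 12931 in KO guide 1, and 5272 and 5863 in KO guide 2. KO guide 2 was below all others, with log2 differences of -0.68 from control (SE 0.16, limma adjusted p 0.0268) and -0.99 from KO guide 1 (SE 0.18, limma adjusted p 0.0187). The first of these was lost without any 1 of 5 libraries, namely both of KO guide 2, both of control line 1 and replicate 2 of control line 2 (adjusted p up to 0.109), and the second without replicate 2 of KO guide 1 (0.158). Against control, KO guide 1 differed by 0.31 (SE 0.16, limma adjusted p 0.269), called higher with the block (adjusted p 0.0369). Between the KO-labelled lines SEMA4C differed by -0.65 (limma adjusted p 0.0497) and SEMA4F by -0.74 (limma adjusted p 0.0404), and each was called in only 1 of the 8 fits with a library left out, without replicate 2 and without replicate 1 of KO guide 2. SEMA4D, the ligand of PLXNB1 that is also shed from lymphocytes, had 128 and 185 in KO guide 2 and 208 to 302 elsewhere. Its log2 differences of -0.59 from control (limma adjusted p 0.0814) and -0.85 from KO guide 1 (0.0519) were called with the block (adjusted p 0.0205 and 0.00775). SEMA4G had 9.06 to 24.8 normalized reads and was not called, on exons it shares with MRPL43 of the opposite strand.

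The remaining ligands of classes 5 and 6 were not called among the 14040 filtered genes without the block. SEMA5B, the closest relative of SEMA5A, was near the limit of detection, with 11.95 and 11.4 normalized reads in control line 1, 0.860 and 2.27 in control line 2, 6.26 and 5.19 in KO guide 1, and 1.03 and 0 in KO guide 2, and with 41 reads in all. Its log2 difference in KO guide 2 was -1.97 from control (SE 0.57, limma adjusted p 0.0581, and 0.0340 with the block) and -2.23 from KO guide 1 (SE 0.66, limma adjusted p 0.0770, and 0.0405 with the block), the first also called when no filter on low values was used (adjusted p 0.0410). SEMA6A, a ligand of PLXNA2 and PLXNA4, had 8.27 to 18.1 in the control lines and KO guide 1, and 22.8 and 36.2 in KO guide 2 (log2 difference from control 1.10, SE 0.38, limma adjusted p 0.0989, and 0.0247 with the block). From KO guide 1 it differed by 1.18 (SE 0.43, limma adjusted p 0.139, and 0.0374 with the block). SEMA6A-AS1 and SEMA6A-AS2 overlap its exons on the opposite strand, with the uncertainty given for SEMA5A. SEMA6B was at 716 to 1344 and lower in replicate 2 of every line, and KO guide 1 was called higher than control with the block (log2 difference 0.35, adjusted p 0.0352). SEMA6C had 34.0 to 68.0 and was not called in any of the 5 comparisons.

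Among the receptors, PLXNA1, which pairs with the neuropilins for class 3 ligands, had 3543 and 3991 normalized reads in control line 1, 2379 and 2165 in control line 2, 2533 and 2697 in KO guide 1, and 1161 and 921 in KO guide 2. PLXND1, the receptor of SEMA3E, had 9727 and 10455 in control line 1, 5138 and 6415 in control line 2, 6751 and 6694 in KO guide 1, and 3109 and 3275 in KO guide 2. Both were highest in control line 1 and lowest in KO guide 2, and no library of one line overlapped another line. KO guide 2 fell below control, with log2 differences of -1.50 for PLXNA1 (SE 0.13, limma adjusted p 0.000561) and -1.25 for PLXND1 (SE 0.12, limma adjusted p 0.00114), both called without each of the 8 libraries. KO guide 1 differed from control by -0.16 (limma adjusted p 0.488) and -0.18 (0.415). The direct difference between the KO-labelled lines was -1.34 for PLXNA1 (SE 0.15, limma adjusted p 0.00344), called without each library, and -1.07 for PLXND1 (SE 0.14, limma adjusted p 0.00605), lost without either library of KO guide 1 (adjusted p up to 0.0680). Control line 2 differed from control line 1 by -0.73 (SE 0.15, limma adjusted p 0.0482) and -0.81 (SE 0.14, limma adjusted p 0.0320), calls that were lost without any 1 library of the control lines or KO guide 1 (adjusted p up to 0.322 and 0.250).

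PLXNA2 moved otherwise. Its normalized reads were 134 and 121 in control line 1, 284 and 152 in control line 2, 375 and 302 in KO guide 1, and 164 and 122 in KO guide 2. KO guide 1 was above all other libraries, and the replicates of control line 2 were far apart. KO guide 1 was above control by 1.04 (SE 0.26, limma adjusted p 0.0465), and KO guide 2 differed from KO guide 1 by -1.24 (SE 0.30, limma adjusted p 0.0436). Each call held in 3 of the 8 fits with a library left out. The first was lost without either library of KO guide 1 or control line 1, or replicate 2 of control line 2 (adjusted p up to 0.292), and the second without either library of KO guide 1 or control line 1, or replicate 2 of KO guide 2 (up to 0.214). Between KO guide 2 and control, PLXNA2 differed by -0.20 (SE 0.26, limma adjusted p 0.682), a sign that turned when replicate 1 of control line 2 or replicate 2 of KO guide 2 was left out. Control line 2 was above control line 1 (log2 difference 0.70, SE 0.30, limma adjusted p 0.298, and 0.0304 with the block).

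The other 6 plexins were not called. PLXNB2, with 6309.8 to 11088 normalized reads, was lower in replicate 2 of every line and differed between the KO-labelled lines by -0.48 (limma adjusted p 0.162), called with the block (adjusted p 0.00813). PLXNB1, the receptor of SEMA4D, had 593 to 841, and PLXNA3 had 583 to 688. PLXNB3 had 849 to 1222 in the control libraries and 635 to 829.8 in the KO-labelled libraries, and with the block it was called lower in both KO guide 1 (log2 difference -0.40, adjusted p 0.0358) and KO guide 2 (-0.43, adjusted p 0.0234). Its annotation shares exon sequence with SRPK3 on the same strand. PLXNA4 had 5.20 to 34.4, with control line 2 above control line 1 (log2 difference 1.67, limma adjusted p 0.112, and 0.0222 with the block). PLXNC1 had 11.4 to 38.6, both extremes in KO guide 2. On the opposite strand, CEP83 and AC073655.2 overlap exons of PLXNC1, and LAGE3 those of PLXNA3, with the uncertainty given for SEMA5A.

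Of the co-receptors, NRP2 had 11329 and 11342 normalized reads in control line 1, 9420.2 and 7092 in control line 2, 9777 and 11100.2 in KO guide 1, and 5073 and 4489 in KO guide 2. KO guide 2 was below all other libraries, while KO guide 1 lay between the control lines. KO guide 2 differed from control by -1.01 (SE 0.14, limma adjusted p 0.00399), called without each of the 8 libraries, and from KO guide 1 by -1.13 (SE 0.17, limma adjusted p 0.00876), lost without either library of KO guide 1 (adjusted p up to 0.103). For NRP2 the difference between control line 2 and control line 1 was -0.47 (SE 0.17, limma adjusted p 0.198, and 0.0415 with the block). NRP1 had 8186 and 8795 in control line 1 and 5279.6 to 6480.0 in the other 6 libraries, so that control line 1 stood apart. Control line 2 was below control line 1 (log2 difference -0.55, SE 0.14, limma adjusted p 0.0780) and KO guide 2 differed from control by -0.33 (SE 0.12, limma adjusted p 0.110), both called with the block (adjusted p 0.00599 and 0.0196). Antisense transcripts overlap the exons of both neuropilin genes (AL121748.2 for NRP1 and AC007362.1 for NRP2), so with no strand setting given their reads cannot be told apart.

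Some of these genes lie on chromosome 3, whose other tested genes also differed between the lines. PLXNA1 (chr3:126983115-127037389, plus strand) and PLXND1 (chr3:129555214-129606676, minus strand) lie 2.52 Mb apart on the long arm. The 24 tested genes that start between them had a median log2 difference of -0.79 in KO guide 2 against control, with all 24 below 0 and 18 called lower, beside 6.67% of all tested genes called lower. Between them the median was -0.17 in KO guide 1, with 21 of the 24 below 0, 2 called lower and 0 called higher. In control line 2 against control line 1 it was -0.32, with 20 of the 24 below 0 and 0 called in either direction. The 775 tested genes of chromosome 3 outside the family had medians of -0.48 in KO guide 2, -0.22 in KO guide 1 and -0.43 between control line 2 and control line 1, where the median of all tested genes was 0.01, 0.00 and 0.00. Of the 775, 86.6% were below 0 in KO guide 2 and 263 were called lower. In KO guide 1, 74.8% were below 0 and 55 were called lower. Between control line 2 and control line 1, 90.1% were below 0 and 40 were called lower. Called higher were 5, 13 and 4 of the 775. Of all tested genes, 6.67%, 3.18% and 1.08% were called lower in these comparisons. SEMA3F, also called lower in KO guide 2, lies on this chromosome too, as do SEMA3B, SEMA5B and PLXNB1. In KO guide 2 against control these last genes differed by 0.67, -1.97 and 0.04, none called by limma without the block. The part of the chromosome in the values of these genes, and in those of PLXNA1 and PLXND1, was not tested.

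SEMA3F (chr3:50155058-50189075) and SEMA3B (chr3:50260226-50277546) are neighbours on the short arm, 71.2 kb apart and both on the plus strand, yet differed in order over the lines. SEMA3F was highest in KO guide 1 and lowest in KO guide 2, and SEMA3B was highest in control line 1 and lowest in control line 2. The plot of both pairs shows the shared order of the plexin genes and the unlike order of the semaphorin genes.

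**Figure D4:**
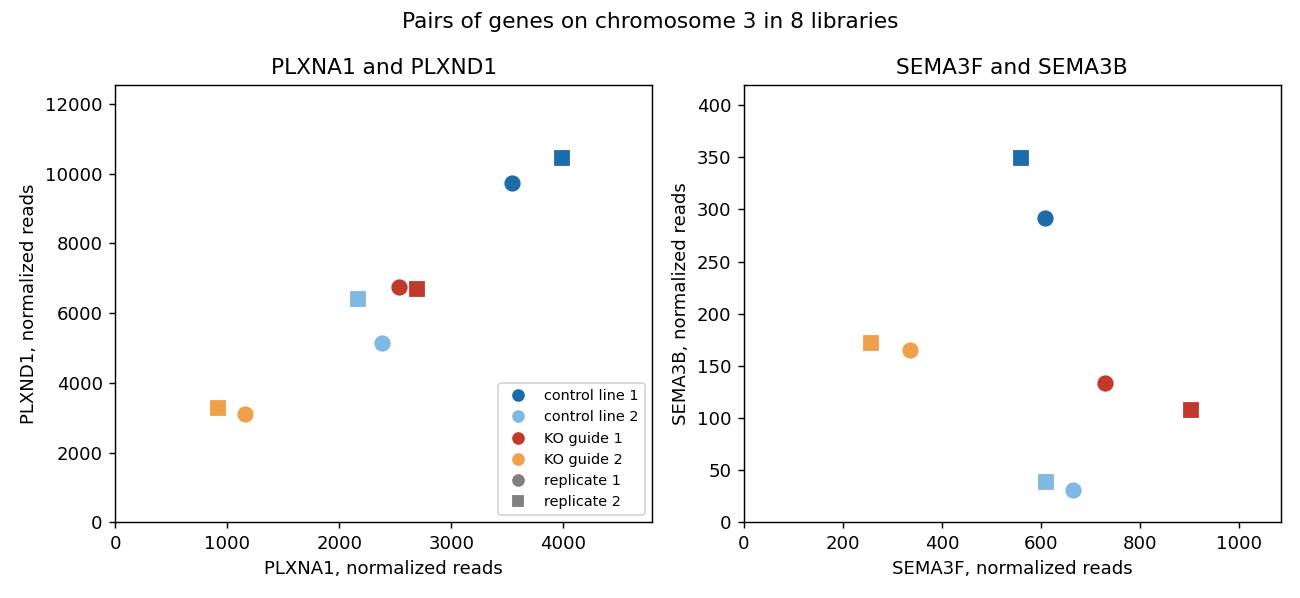
Normalized reads of 2 pairs of genes of chromosome 3 in the 8 libraries (linear axes from 0), 1 point per library, with colour for the line and shape for the replicate. PLXNA1 and PLXND1 are both lowest in KO guide 2 and highest in control line 1, whereas the control lines differ in SEMA3B at similar SEMA3F.

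Genes around these receptors were read from 3 lists: 22 co-receptors, alternative ligands and proteases (17 tested), 33 cytoplasmic signalling partners (30 tested) and 41 genes of other guidance families (26 tested). These lists, too, were written with earlier results of these data known. Between the arms limma called 0 in each, beside 33 of the 14040 tested genes. At an unadjusted limma p under 0.05 were 4, 5 and 7, beside 1615 of the 14040. EdgeR called 0, 0 and 1, beside 186 of the 14040, and DESeq2 3, 2 and 4, beside 848. Both took the libraries of a line as independent between the arms. Of the 17 co-receptors, alternative ligands and proteases, 2 were higher and 1 lower in KO guide 1, where 3.82% and 3.18% of all tested genes were: NRCAM and L1CAM, adhesion molecules that join neuropilin complexes, differed by 1.07 (limma adjusted p 0.00227) and -1.32 (0.00541), and MET, the hepatocyte growth factor receptor that associates with B plexins, by 0.66 (0.0131). NRCAM had 1528 and 1499 normalized reads there against 650.3 to 771 in the control libraries. In KO guide 2, 1 was higher and 4 lower, beside 4.54% and 6.67% of all tested genes, with SDC1 and SDC3, heparan sulfate syndecans, at -1.29 (limma adjusted p 0.00271) and -0.85 (0.0118) and L1CAM at -0.88 (0.0182). The medians of this list were -0.05 in KO guide 1 and -0.42 in KO guide 2. L1CAM had 2807 to 5643 normalized reads in the control libraries, 1290.2 and 1635 in KO guide 1 and 1732 and 2243 in KO guide 2, below all controls in both lines. Between the KO-labelled lines 1 was higher and 2 lower in KO guide 2 (VEGFB 0.82, NRCAM -1.44, ADAM17 -1.16), beside 2.41% and 4.53% of all tested genes. Between the control lines SDC2 alone was called by limma (1.56), beside 2.13% of all tested genes. With the block, which called 24.4%, 27.4%, 24.5% and 12.5% of all tested genes, the counts were 4 higher and 3 lower in KO guide 1, 1 and 9 in KO guide 2, 2 and 9 in KO guide 2 against KO guide 1, and 2 and 5 between the control lines.

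Of the 30 signalling partners, 1 was higher and 2 lower in KO guide 1, and 2 higher and 1 lower in KO guide 2, with list medians of 0.10 and 0.08. These 3 of 30 in each line stand beside 7.01% and 11.2% of all tested genes and are no result about the list. With the block the counts were 6 higher and 4 lower, and 4 and 3, beside 24.4% and 27.4%. DPYSL2, also known as CRMP2, the cytosolic mediator of the SEMA3A response, was higher in both, by 0.56 (limma adjusted p 0.0251) and 0.78 (0.00442), but also differed between the control lines by 0.67 (0.0411). FYN, a kinase bound by class A plexins, was lower in KO guide 1 (log2 difference -1.43, limma adjusted p 0.0157), at 46.2 and 48.8 against 120 to 145 in control. In KO guide 2, RRAS, a GTPase that plexins switch off, was higher by 0.57 (limma adjusted p 0.0269), and GSK3B, a kinase downstream of semaphorin receptors, was lower (-0.70, 0.0327).

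Of the 26 genes of other guidance families, 2 were higher and 1 lower in KO guide 1, beside 3.82% and 3.18% of all tested genes. In KO guide 2, 6 were lower, beside 6.67% of all tested genes, and limma called 0 higher (4.54% of all). At an unadjusted limma p under 0.05 in either direction were 13 of the 26, beside 3749 of the 14040 tested genes. The list medians were -0.17 and -0.23. With the block the counts were 6 higher and 5 lower in KO guide 1, beside 13.0% and 11.4% of all genes, and 3 and 11 in KO guide 2, beside 12.5% and 14.9%. NTN1, which encodes the secreted guidance cue netrin-1, had 48.7 and 61.4 normalized reads in control line 1, 178 and 203 in control line 2, 297 and 304 in KO guide 1, and 16.5 and 19.3 in KO guide 2. No line overlapped another, and the KO-labelled lines lay on opposite sides of the controls, at 1.55 (limma adjusted p 0.003015) and -2.45 (0.000337), with -3.998 between them (limma adjusted p 7.6e-05). SLIT2, a repellent ligand of ROBO receptors, was lower in KO guide 2 (log2 difference -2.33, limma adjusted p 0.00721), and NTNG2, a membrane-anchored netrin, was lower in both lines (-1.15, 0.0147, and -1.49, 0.00348). EPHA7, an ephrin receptor, was higher in KO guide 1 by 0.67 (limma adjusted p 0.0397). Between the control lines NTN1 was higher in line 2 (1.78) and ROBO1, a SLIT receptor, lower (-0.94). Of the calls named from the lists, those of NRCAM, SDC1 and SDC2, of SLIT2, NTNG2, DPYSL2 and NTN1 in KO guide 2, and of NTN1 between the KO-labelled lines held without each of the 8 libraries, and the others were lost without at least 1 of them. Lost in most of these fits were RRAS and GSK3B in KO guide 2 and EPHA7 in KO guide 1. So were VEGFB between the KO-labelled lines, and DPYSL2 and ROBO1 between the control lines.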

How the data were processed

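RNA-seq of 8 libraries from 4 A-498 lines was analysed from the deposited table. Per the submitters' processing notes, fastp 0.23.2, HISAT2 2.2.1, featureCounts 2.0.1 and DESeq2 2.11.40.8 were used with builds hg38 and GRCh38; the annotation and strand setting are not given in the sources used here. The authors deposited a normalized signal per gene, 1 column per library: 100% of nonzero values were whole multiples of what 1 read is worth (tolerance 1e-06), so that whole reads were recovered (15784890 to 22631588 per library). Reads carry no molecular identifiers, so limits cover counting error only. Symbols and coordinates came from RefSeq GRCh38.p14 by Entrez identifier (27745 of 28395 matched), and exon lengths from GENCODE v29.

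Differences were tested with limma 3.58.1 (R 4.3.3, lmFit and eBayes with trend) on log2(value + 1), which understates changes of low genes, over the 14040 genes that reached 10 in 2 or more libraries. Arms were compared with a correlation within lines (duplicateCorrelation, 0.33), and lines in 1 model of line means. Benjamini-Hochberg adjustment ran over all tested genes, and an adjusted p under 0.05 was a call. The scripts were tested on simulated data. Alternatives were edgeR 4.0.16 and DESeq2 1.42.0 on recovered reads, TMM scaling, a pseudocount of 10, no filter, a separate mean per line, line means, the replicate block and leaving out each library. Between the arms, edgeR and DESeq2 had no term for the line, so libraries of a line counted as independent. Replicate numbers came from the labels' titles; the difference between replicates correlated at 0.285 to 0.501 (Pearson's r across genes) in all 6 pairs of lines, so blocked values are given where they change a call. The genes and all lists were chosen with earlier results of these data known. Every tested gene of the family was named, and from each partner list up to 3 called genes of largest change per comparison with a mean of at least 50.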

Additional observations from a re-analysis of the deposited data

Results flagged for a closer look

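Between the KO-labelled lines, 9 genes differed in their direct comparison by limma, which is also the test of whether their effects against the shared controls differ. The log2 difference (KO guide 2 minus KO guide 1) was -1.47 for SEMA3F, -1.34 for PLXNA1, -1.24 for PLXNA2, -1.13 for NRP2, -1.07 for PLXND1, -0.99 for SEMA4B, -0.74 for SEMA4F and -0.65 for SEMA4C, and it was 1.29 for SEMA7A. Of these, PLXNA1 was called without each of the 8 libraries.

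In 3 of 52 groups of 4 libraries, 1 library lay far from the other three of its arm, with a gap of more than Dixon's 95% critical share of the group's whole range; chance gives about 1 such group in 20. The gap was 0.919 of the range for PLXNA3 in control, where control line 2 replicate 2 was low at 583 against 609 to 611. It was 0.890 for SEMA4F in control, where control line 1 replicate 2 was low at 358, and 0.834 for SEMA3A among the KO-labelled libraries, where KO guide 1 replicate 1 was low at 72.8.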

How the results depend on the processing

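Between the arms, 33 genes and 1 of the 26 semaphorins, plexins and neuropilins (SEMA5A) were called by limma. A separate mean per line, which leaves the spread between lines out of the error, gave 1474 genes and 6 of the 26, line means gave 0 and 0 (1086 genes at an unadjusted p under 0.05), DESeq2 gave 848 and 3, edgeR gave 186 genes and no low-value filter 71. The DESeq2 and edgeR fits of the arms took the libraries of a line as independent. With the replicate block, which pairs libraries by the number in their titles, KO guide 1 against control gave 3432 genes and 8 of the 26, KO guide 2 against control 3851 and 16, the control lines 1752 and 9, and the KO-labelled lines 3442 and 14. Between the control lines no filter gave 183 genes and 2 of the 26, and DESeq2 647 genes. With each library left out in turn, counts ranged from 7 to 39 genes between the arms (SEMA5A each time), from 148 to 1312 genes and 2 to 3 of the 26 for KO guide 1, from 813 to 1363 and 6 to 8 for KO guide 2, from 43 to 410 and 1 to 4 between the control lines, and from 87 to 1003 and 1 to 8 between the KO-labelled lines; the line left with 1 library is then assumed to vary like the others. Of the 130 differences (26 genes in 5 comparisons), 36, none of them called, turned sign in at least 1 of the fits with a library left out. Among genes called in some comparison these were PLXNA2 in KO guide 2 to 0.0266 without control line 2 replicate 1 and 0.02 without KO guide 2 replicate 2 (range -0.423 to 0.0266 over the 8 fits) and SEMA4C between the control lines to -0.0792 without control line 1 replicate 1 and -0.05 without control line 2 replicate 2 (range -0.0792 to 0.108). SEMA3B between the arms turned to -0.30 with edgeR and with DESeq2. Its mean of normalized reads was 178 in control and 144 in KO, while the limma difference is one of mean logs. The cause was not tested. Pseudocount 10 and TMM moved no count of calls by over 1.5 times. Genes with few reads, such as SEMA5B with 41 in all, are limited by depth.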

Other observations

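Besides SEMA3C, replicate 2 was above replicate 1 in every line for SEMA4B, SEMA4C, SEMA6A, NRP1 and PLXNC1, and below it in every line for SEMA6B, PLXNB2, PLXNA2 and PLXNA4. These are 6 and 4 of the 26 tested genes, beside 20.2% and 19.3% of all tested genes for the same patterns, so the shares are near those of the whole table and are no result about the family. For SEMA6B the replicates differed by -0.69 to -0.25 on the log2 scale, and for PLXNB2 by -0.43 to -0.23.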
